A study of Danio rerio with 53 samples.

Results

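The chromatin regulator genes described here were the rows of the deposited count table whose gene symbol began with the name of a known chromatin family. The families were the SWI/SNF and other remodelling factors (smarc, arid, chd), bromodomain readers (brd), histone acetyltransferases (kat, ep300, crebbp), histone deacetylases and their corepressors (hdac, ncor), histone methyltransferases (kmt, and the PRC2 genes ezh, suz12 and eed), histone demethylases (kdm) and enzymes that act on DNA methylation (dnmt, tet). The ing genes were counted with the acetyltransferases by name, whatever complex each belongs to. The rule found 127 of 14423 genes, and all 127 passed the low-count filter (10 or more counts in 3 or more libraries), which removed 0 genes. It sorted them by name alone, so a member can be a catalytic enzyme, a scaffold or a reader. By role they were 33 ATP-dependent remodelling genes, 20 histone demethylases, 19 acetylation genes, 14 deacetylation genes, 11 histone methyltransferases, 10 DNA methylation genes, 9 bromodomain readers, 5 PRC2 genes and 6 genes of the ARID3, ARID4 and ARID5 families.

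Chromatin regulators set how tightly DNA is wrapped and which chemical marks the histones and the DNA carry. Remodelling complexes move nucleosomes with energy from ATP, writers and erasers add or remove acetyl and methyl groups, and readers bind the marked histones. In the lymphocytes of mammals such factors are known to act when antigen receptor loci are opened for recombination, when the B or T lineage is fixed and when dividing cells copy their methylation pattern.

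The cells were zebrafish lymphocytes sorted by flow cytometry from the thymus or the marrow of 4 lines that each carried a red and a green reporter transgene, and RNA was measured with QuantSeq FWD, which reads the 3′ end of transcripts. The red reporter was RFP under the promoter of rag2, a recombinase gene of developing lymphocytes, or mCherry under that of lck, a T cell kinase. The green reporter was GFP under the promoter of cd79a or cd79b, which encode subunits of the B cell receptor. The rag2-cd79b line gave T Stage II (3 libraries) and thymic B cells (3) from thymus, and from marrow 3 libraries each of B Stages I, II and III and 2 of early B-committed cells. The rag2-cd79a line gave T Stage I (6, from a pair of sorted populations), T Stage II (3) and thymic B cells (3) from thymus, and from marrow 3 libraries each of B Stages I and II and 1 of early B-committed cells. The lck-cd79a line gave T Stage III (3), T Stage IV (3), thymic B cells (3) and early T-committed cells of the marrow (3), and the lck-cd79b line gave thymic B cells (2) and early T-committed cells (3). These are 53 libraries in 19 groups and 10 cell types. No age and no treatment is named in the labels. They do not say whether libraries of a group came from separate animals, so p-values measure only the spread between these libraries, which may be technical. T Stages I and II were sorted only in rag2 lines and T Stages III and IV only in the lck-cd79a line, so line and stage cannot be told apart between those pairs of stages.

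Libraries held 7295854 to 18778603 counts (median 11912824), with 3803 to 11360 genes and 63 to 120 of the 127 chromatin regulators detected. Cell type labels were set against marker lists. The summed level of the T lineage list (12 of 14 genes found) averaged 3591 to 6424 CPM (reads per gene as a share of the library total, scaled) in the 4 thymic T types and 5.58 to 372 CPM in the B types. The B lineage list (7 of 9 found) averaged 899.7 to 2281 CPM in the B types and 1.1 to 29.98 CPM in the thymic T types. Early T-committed libraries carried both, with 1563 CPM of the T list and 326 CPM of the B list, and also 1035 CPM of the myeloid list and 6714 CPM of the erythroid list. Early B-committed libraries likewise carried 776 CPM of the myeloid list and 4584 CPM of the erythroid list. Depth in detected genes moved with cell type: thymic B libraries averaged 89.4 detected chromatin regulators and early T-committed libraries 86.2, against 114 in T Stage I, 115 in T Stage II and 113 in B Stage I.

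On average chromatin regulators took a larger share of the counts in T Stages I and II than in any other cell type. Their summed level was 13553 ± 2276 CPM in T Stage I (SD, n = 6) and 12236 ± 2512 CPM in T Stage II (SD, n = 6). T Stages III and IV held 6484 ± 758 and 7783 ± 1511 CPM (SD, n = 3 each). In the marrow B lineage the early B-committed cells held 8395 ± 2264 CPM (SD, n = 3), B Stages I and II held 7324 ± 865 and 7732 ± 2604 CPM (SD, n = 6 each), and B Stage III held 6265 ± 1060 CPM (SD, n = 3), with ranges that overlapped. Thymic B cells held 6473 ± 1606 CPM (SD, n = 11) and early T-committed cells 5928 ± 769 CPM (SD, n = 6). In bulk samples such as these, fewer cells of a type and less RNA per cell cannot be told apart.

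**Figure D1:**
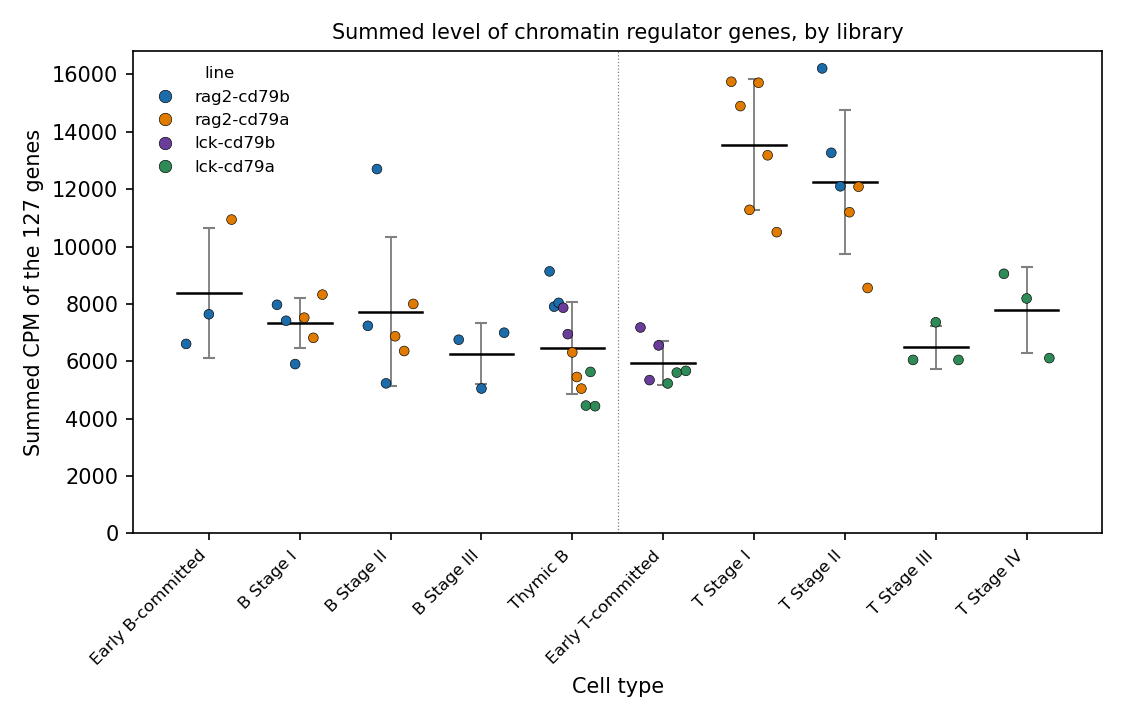
Summed CPM of the 127 chromatin regulator genes in each library, by cell type. Each point is a library, coloured by line, the horizontal bar is the mean of the cell type and the whiskers are its SD. T Stage I libraries lie between 10502 and 15747 CPM and T Stage II libraries between 8555 and 16212 CPM, while thymic B libraries lie between 4434 and 9134 CPM.

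Within each line the thymic B and thymic T libraries did not overlap in this sum. In the rag2-cd79b line the 3 thymic B libraries held 7904 to 9134 CPM and the 3 T Stage II libraries 12101 to 16212 CPM. In the rag2-cd79a line the ranges were 5046 to 6309 CPM in thymic B cells and 8555 to 15747 CPM over T Stages I and II. In the lck-cd79a line they were 4434 to 5628 CPM in thymic B cells and 6046 to 9050 CPM over T Stages III and IV. The thymic B libraries of the rag2-cd79b line lay above all T Stage III libraries of the lck-cd79a line, so the separation held inside lines and not across them.

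The pattern of the sum was shared by many single genes. T Stage I or T Stage II had the highest mean CPM for 61 of the 127 genes, among them 7 of 9 bromodomain readers, 20 of 33 remodelling genes and 7 of 11 histone methyltransferases, but only 6 of 20 demethylases and 3 of 10 DNA methylation genes. Early B-committed cells were highest for 18 genes and B Stage I for 1. The share of all genes that peaked in T Stages I and II was not computed. The 61 is therefore not shown to be particular to chromatin regulators. Genes detected averaged 9013 and 9149 in T Stages I and II, 6600 in thymic B cells and 9749 in B Stage I. The part of detection in these counts was not tested. The lowest mean fell in early T-committed cells for 28 genes, in B Stage III for 23 and in T Stage III for 22. Mean CPM over the 10 cell types, a level of 3′ reads not divided by transcript length, was 100 or more for 26 genes, from 10 to 100 for 73, from 1 to 10 for 24 and under 1 for 4 (CHD5, HDAC7, ARID3A and smarcal1).

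**Figure D2:**
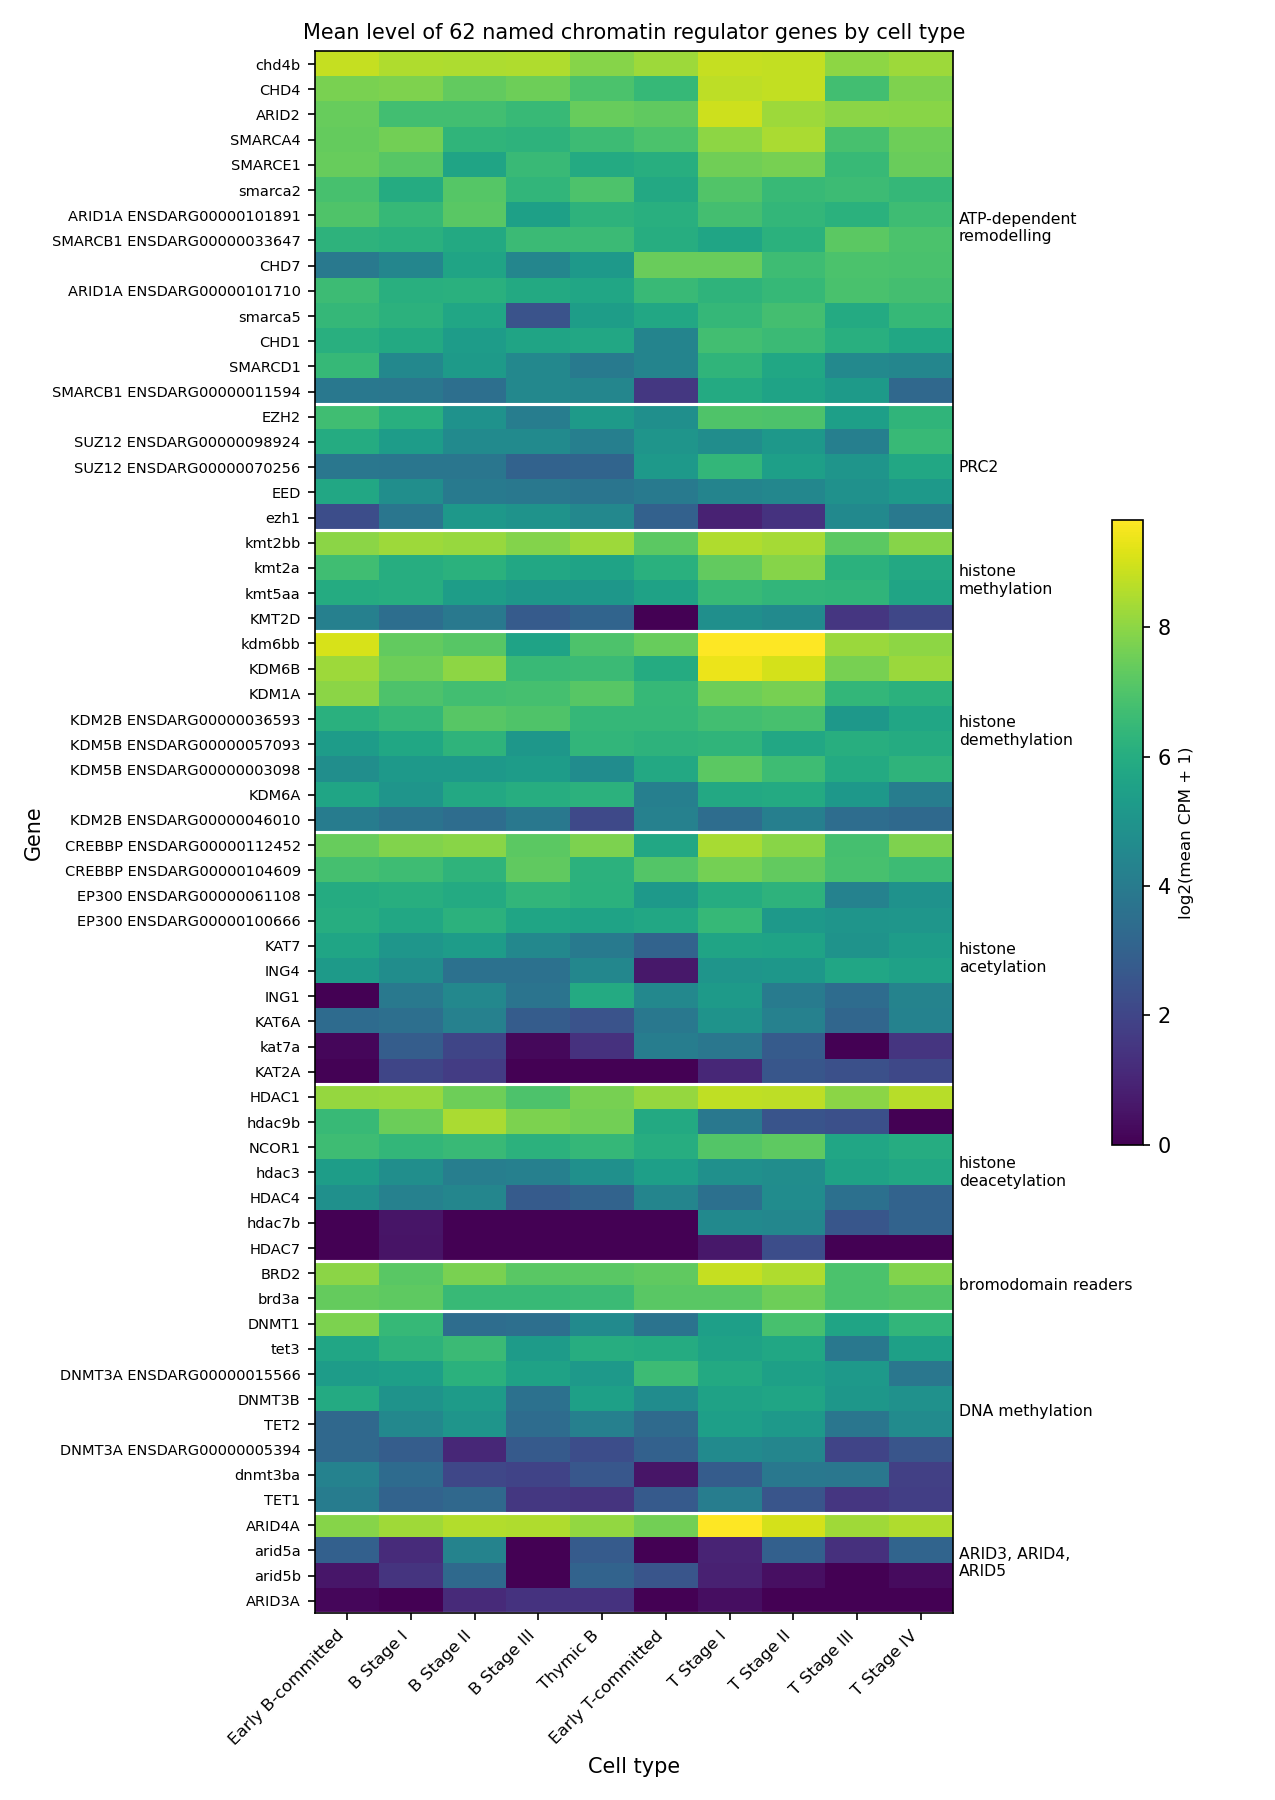
Mean level of 62 named chromatin regulator genes (rows, ordered by role) in the 10 cell types (columns), as log2 of mean CPM + 1. Brighter cells are higher levels, and each averages the 3 to 11 libraries of its cell type. The columns of T Stages I and II are bright for kdm6bb, KDM6B, CHD4, BRD2 and ARID4A, while hdac9b is bright in the B columns and dark in the thymic T columns.

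Genes with high levels in every cell type included subunits of the NuRD complex, which joins nucleosome remodelling to deacetylation. HDAC1, its deacetylase, ranged from 125 CPM in B Stage III to 430 CPM in T Stage I as a mean per cell type. The remodelling ATPase chd4b ranged from 240 CPM in thymic B cells to 453 CPM in early B-committed cells, and its relative CHD4 from 88.5 CPM in early T-committed cells to 438 CPM in T Stage II. The methyltransferase kmt2bb, which marks active promoters, ranged only from 147 CPM in T Stage III to 361 CPM in T Stage I. ARID4A, a subunit of Sin3 deacetylase complexes in mammals, ranged from 194 CPM in early T-committed cells to 806 CPM in T Stage I. The acetyltransferase CREBBP_ENSDARG00000112452 ranged from 54.8 CPM in early T-committed cells to 336 CPM in T Stage I. None of HDAC1, chd4b, kmt2bb and CREBBP_ENSDARG00000112452 passed the test between thymic B and thymic T cells (adjusted p from 0.0706 to 1, edgeR quasi-likelihood test).

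Thymic B cells were compared with thymic T cells inside the 3 lines that had both, 9 against 18 libraries, and the differences were averaged over lines. At an adjusted p under 0.05 (edgeR quasi-likelihood test, Benjamini-Hochberg adjustment over all 14423 genes), 3 chromatin regulators were higher in thymic B cells (hdac9b, ezh1 and arid5b) and 28 were lower. These 31 are 24.4% of the 127, beside 11.2% of all genes called in this comparison (677 or 4.69% higher and 939 or 6.51% lower). A mean of at least 50 CPM was reached by 56 of the 127 chromatin regulators and by 2165 of all 14423 genes. Among these the shares called lay closer, at 33.9% of the chromatin regulators and 29.7% of the genes. With that cut the median log2 fold change was -0.69 for chromatin regulators and -0.24 for all genes, and without it -0.79 and -0.72. The log2 fold change was negative for 96 of the 127 genes (75.6%) and for 67.1% of all genes. With trended dispersions 28 chromatin regulators were called, 23 of them shared with the 31, and the share of all genes is not given here. DESeq2 called 50 of the 127, 28 of them shared with the 31, beside 33.5% of all genes. Under all 3 methods 1 gene (hdac9b) was higher and 22 were lower.

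**Figure D3:**
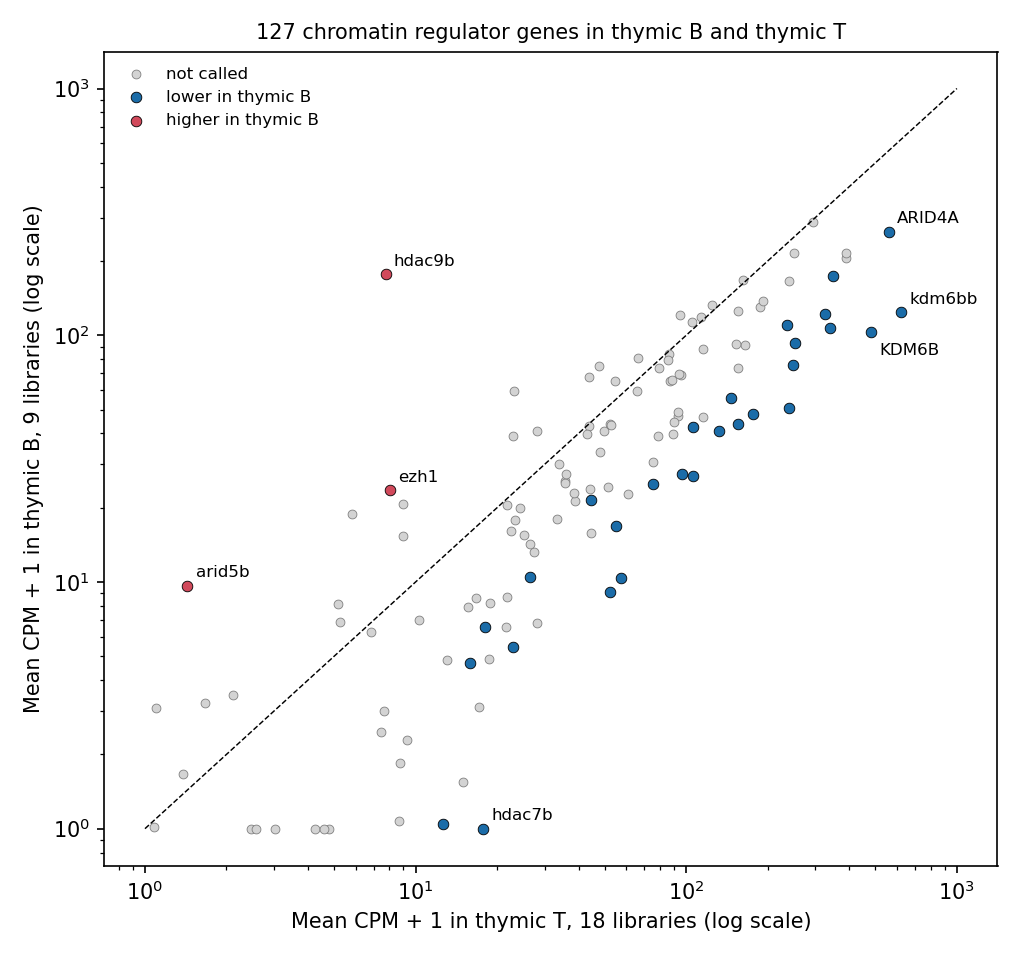
Mean CPM + 1 of each of the 127 chromatin regulator genes in 18 thymic T libraries (horizontal, log axis) and 9 thymic B libraries (vertical, log axis) of the 3 lines with both. Each point is a gene, called genes are coloured by direction, and the diagonal marks equal levels. The 28 lower genes lie under the diagonal, and hdac9b, at 6.74 CPM in T cells and 176 CPM in B cells, lies far above it.

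The class II deacetylase hdac9b, whose mammalian relatives repress genes bound by MEF factors, was the gene that most clearly marked the B lineage. The 9 thymic B libraries held 103 to 307 CPM (median 160.0) and the 18 thymic T libraries 0 to 33.1 CPM (median 3.11), with no overlap (adjusted p = 2.55e-22, edgeR). All 3 T Stage IV libraries were at 0, so a fold change over the 3 lines is not given. The log2 difference was 5.21 ± 0.94 (SE) inside the rag2-cd79b line and 4.66 ± 0.59 (SE) inside the rag2-cd79a line. In the marrow hdac9b was already at 59.5, 95.6 and 115 CPM in the 3 early B-committed libraries. It ran from 108 to 271 CPM in B Stage I, from 195 to 722 CPM in B Stage II, and stood at 145, 155 and 341 CPM in B Stage III. Thus every B lineage library, thymic or marrow, lay above every thymic T library. Early T-committed libraries reached into the B range, from 0.902 to 159 CPM (median 42.9), and these also carried 163 to 590 CPM of the B lineage marker list, whose part in the hdac9b level was not tested.

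The demethylases kdm6bb and KDM6B, relatives that in mammals remove the repressive methyl mark set by PRC2, had the opposite pattern. In the 9 thymic B libraries kdm6bb held 45.1 to 253 CPM (median 89.8), and in the 18 thymic T libraries 201 to 1004 CPM (median 613). It was lower in B cells by a log2 fold change of -2.12 ± 0.31 (SE), adjusted p = 3.62e-09 (edgeR). KDM6B held 27.9 to 233 CPM (median 101) in thymic B cells and 193 to 874 CPM (median 428) in thymic T cells, with a log2 fold change of -2.08 ± 0.33 (SE) and adjusted p = 9.98e-08 (edgeR). For both genes the pooled ranges overlapped only between the highest B and the lowest T libraries. In the lck-cd79a line alone the differences were in the same direction, at -1.50 ± 0.51 (SE) for kdm6bb and -1.01 ± 0.53 (SE) for KDM6B, and did not pass (adjusted p = 0.0838 and 0.378, edgeR). Another demethylase of this family, KDM6A, did not pass. Its mean was 72.6 CPM over all 11 thymic B libraries, while the test left out those of the lck-cd79b line. Its means in the 4 thymic T types ran from 15.9 to 58.9 CPM. The family also holds kdm6al, which was not called, with means per cell type from 2.45 CPM in B Stage III to 45.4 CPM in T Stage I. Genes this similar can share 3′ reads, so the separate values of kdm6bb and KDM6B are uncertain.

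**Figure D4:**
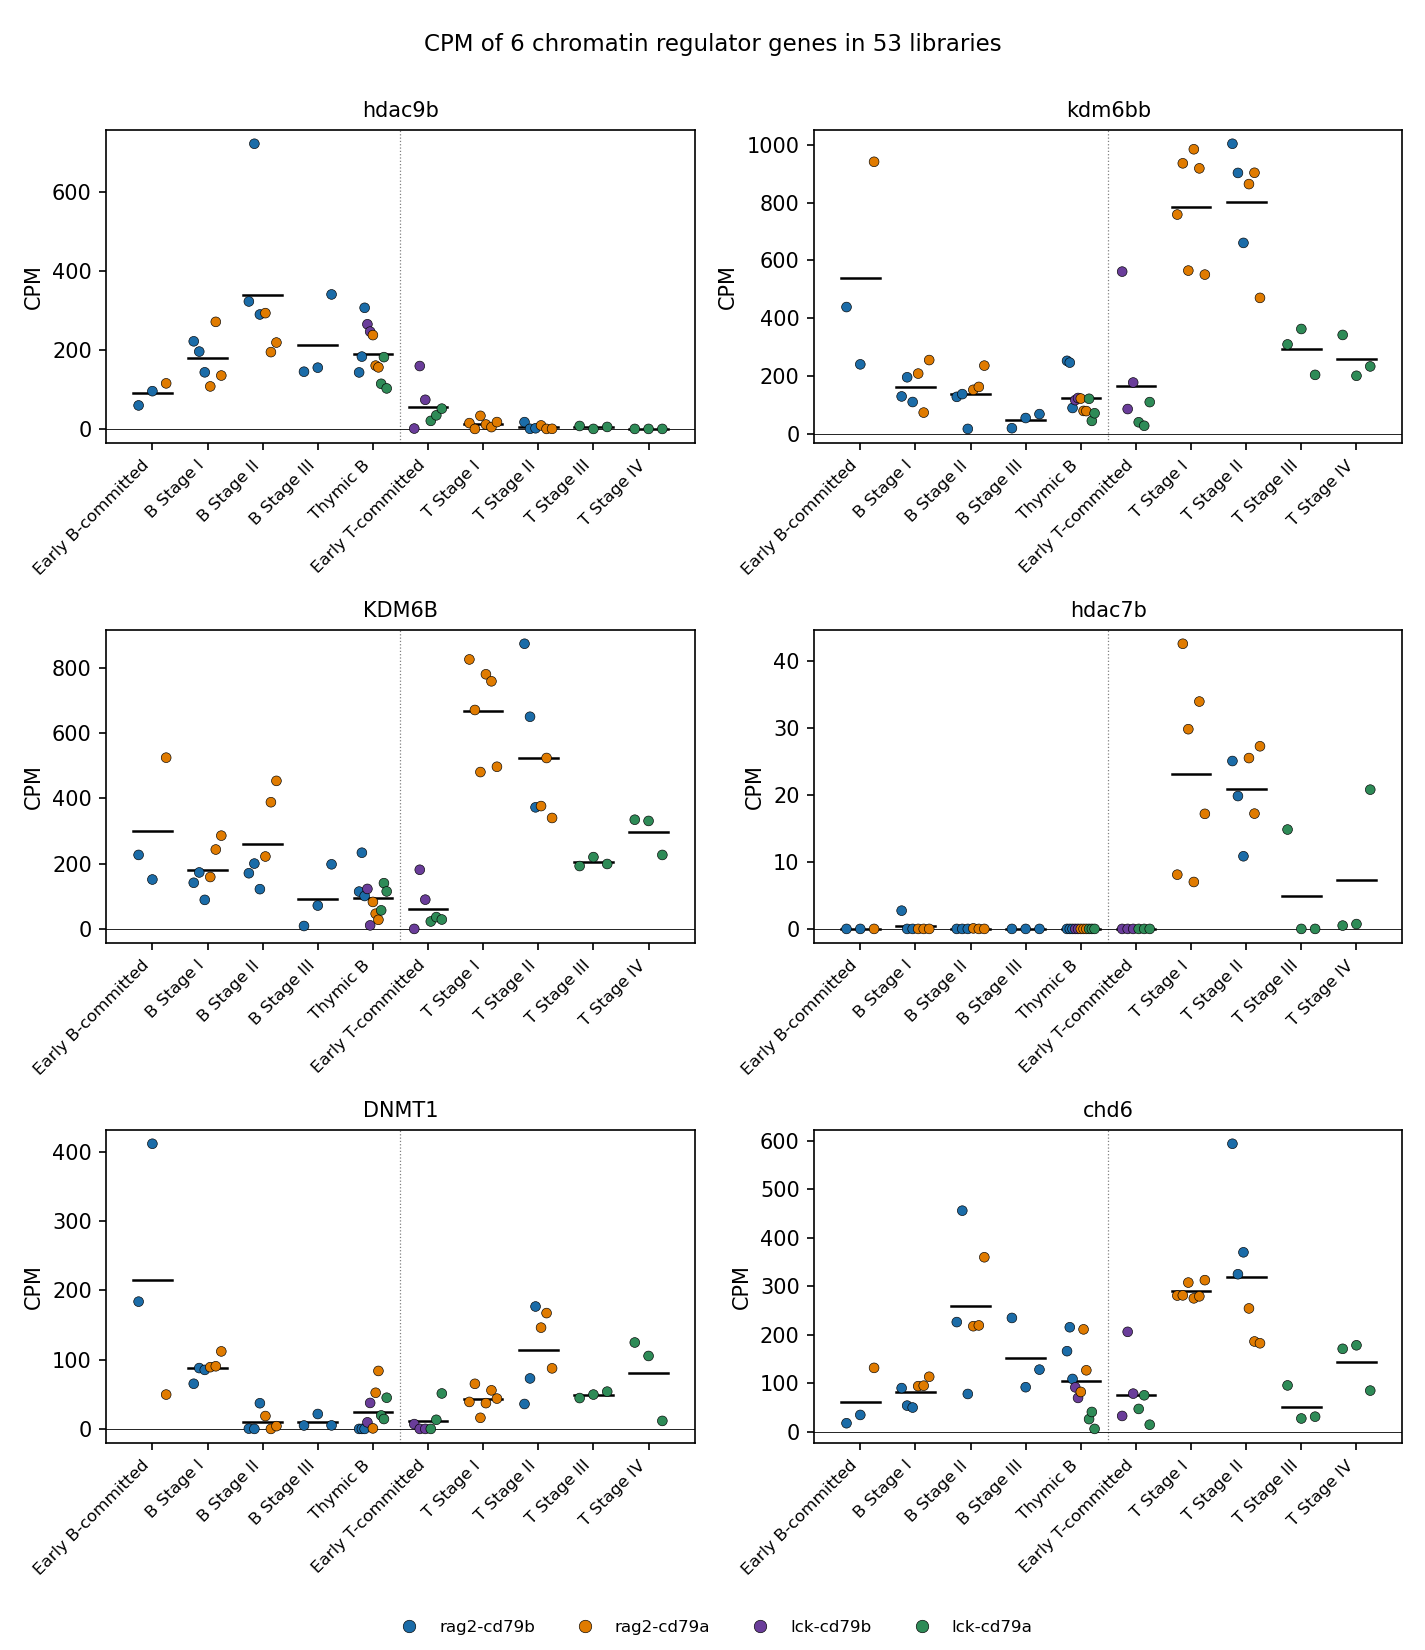
CPM of hdac9b, kdm6bb, KDM6B, hdac7b, DNMT1 and chd6 in each library, by cell type, in 6 panels with their own vertical axes. Points are libraries, coloured by line, and the short lines are means per cell type. The panel of hdac9b is high in B lineage cells, those of kdm6bb and KDM6B are high in T Stages I and II, hdac7b appears almost only in thymic T cells, and DNMT1 is lower in B Stages II and III than in the marrow precursors.

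Of the 33 remodelling genes, the role with the most members, 12 were lower in thymic B cells and 0 higher. PRC2 had 2 of 5 lower and 1 higher, and the deacetylation genes 4 of 14 lower and 1 higher. smarca1, an ISWI ATPase that spaces nucleosomes, was at 0 CPM in the median thymic B library with a range of 0 to 145 CPM, against 26.0 to 209 CPM (median 74.9) in thymic T cells (adjusted p = 5.22e-07, edgeR). The B libraries above the T median were in the rag2-cd79b line, where the difference was not called (-0.87 ± 0.85 on the log2 scale, SE, adjusted p = 0.665). CHD4 held 47.3 to 216 CPM (median 83.7) in thymic B and 52.5 to 892 CPM (median 336) in thymic T libraries, with a log2 fold change of -1.50 ± 0.33 (SE) and adjusted p = 0.000192 (edgeR). Its ranges overlapped, and the 3 lowest thymic T libraries were all of the lck-cd79a line.

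Subunits and motors of the SWI/SNF complexes, which evict or slide nucleosomes at promoters and enhancers, were among the lower genes. SMARCE1, a core subunit, held 1.43 to 110.4 CPM in thymic B and 75.8 to 273 CPM in thymic T libraries (log2 fold change -1.80 ± 0.40, SE, adjusted p = 0.00024, edgeR). SMARCD1, a subunit that links the complex to transcription factors, held 0 to 29.2 CPM against 8.18 to 160.1 CPM (-3.23 ± 0.79, SE, adjusted p = 0.00109). The motor SMARCA4 held 0.258 to 210.1 CPM against 100.3 to 509 CPM (-1.20 ± 0.35, SE, adjusted p = 0.00933). The ranges of all 3 overlapped. The highest SMARCA4 value in thymic B cells lay above all T Stage III (100.3 to 127 CPM) and T Stage IV (160 to 202 CPM) libraries. SMARCA4 was not called inside any of the 3 lines alone. SMARCD1 went the other way inside the lck-cd79a line, at 0.20 ± 0.86 (SE) on the log2 scale (adjusted p = 1). The other motor, smarca2, was not called (adjusted p = 1), and the core subunits SMARCB1_ENSDARG00000011594, SMARCB1_ENSDARG00000033647, ARID1A_ENSDARG00000101710 and ARID1A_ENSDARG00000101891 were not called either, with adjusted p from 0.355 to 1. BRD7, a bromodomain subunit of one SWI/SNF form, held 0 to 192 CPM (median 34.8) in thymic B and 72.8 to 591 CPM (median 222) in thymic T libraries, at -2.20 ± 0.40 (SE), adjusted p = 4.54e-06. ARID2, another subunit of that form, was lower by -1.05 ± 0.32 (SE, adjusted p = 0.0134) as a mean over lines, although its difference inside the rag2-cd79b line was 0.21.

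Among writers, readers and corepressors, fewer genes were called. The methyltransferase kmt2a, known from mammals for keeping developmental genes active, held 0.394 to 172 CPM (median 29.5) in thymic B and 10.7 to 357 CPM (median 147) in thymic T libraries. Its log2 fold change was -2.02 ± 0.44 (SE), adjusted p = 0.0002 (edgeR). NCOR1, a corepressor that brings deacetylases to nuclear receptors, was not called (adjusted p = 1). The bromodomain reader BRD2, which binds acetylated histones, was lower by -1.10 ± 0.31 (SE, adjusted p = 0.00723), while its relative brd3a was not called (adjusted p = 0.389). Of the 19 acetylation genes 1 was lower (ing5b, at 0 CPM in 8 of 9 thymic B libraries) and 18 were not called, the acetyltransferases CREBBP and EP300 among them, each with a pair of identifiers.

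PRC2, which sets a repressive methyl mark on histones and works through the catalytic subunits EZH1 or EZH2 in mammals, split between its members. EZH2 was lower in thymic B cells at a log2 fold change of -1.90 ± 0.52 (SE, adjusted p = 0.00601, edgeR). Its thymic T libraries held 25.9 to 185 CPM (median 109), while 7 of 9 thymic B libraries lay at 0 to 23.7 CPM and the others, both of the rag2-cd79b line, at 85.3 and 219 CPM. EZH2 was not called with trended dispersions (adjusted p = 0.224) or by DESeq2 (adjusted p = 0.0522). SUZ12_ENSDARG00000070256, a core subunit, held 0 to 61.8 CPM (median 0) against 9.25 to 163 CPM (median 49.5), at -3.23 ± 0.80 (SE), adjusted p = 0.00143. The other catalytic subunit, ezh1, was higher in thymic B cells, at 0 to 62.1 CPM (median 18.1) against 0 to 41.5 CPM (median 1.26), with a log2 fold change of 2.91 ± 0.79 (SE) and adjusted p = 0.00427. The ranges of ezh1 overlapped fully, and the call was lost without rag2-cd79b thymic B library 6 (adjusted p = 0.0831) or rag2-cd79a thymic B library 33 (adjusted p = 0.519). With trended dispersions neither SUZ12_ENSDARG00000070256 nor ezh1 was called (adjusted p = 0.0522 and 0.13, edgeR). DESeq2 called both (adjusted p = 0.00629 and 0.0104). EED, the third core subunit, and the second SUZ12 identifier, SUZ12_ENSDARG00000098924, were not called (adjusted p = 1 and 0.0697).

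DNMT1, the maintenance methyltransferase that copies DNA methylation behind the replication fork, was at 0 in all 3 thymic B libraries of the rag2-cd79b line. It held 0.775, 52.2 and 83.7 CPM in those of the rag2-cd79a line and 14.3, 19.5 and 45.0 CPM in those of the lck-cd79a line, against 11.5 to 177 CPM (median 54.8) in thymic T cells. Detection differed by line, with 3803, 5156 and 5941 genes detected in the thymic B libraries of the rag2-cd79b line. Those of the rag2-cd79a line had 5884 to 6739 and those of the lck-cd79a line 7892 to 8910. The part of detection in the DNMT1 zeros was not tested. The comparison was called (adjusted p = 0.00149, edgeR), and this rested on the rag2-cd79b line, since inside the rag2-cd79a line the log2 difference was -0.04 ± 0.74 (SE, adjusted p = 1). The summed cycling list (22 rows found, of which MCM6_ENSDARG00000033231 and bub1 were at 0 in thymic B cells) moved with it, at 85.7 to 1160 CPM in thymic B libraries and 1129 to 4993 CPM in thymic T libraries, and its part in the DNMT1 difference was not tested. The de novo methyltransferase DNMT3B and the demethylation enzymes TET1, TET2 and tet3 were not called (adjusted p from 0.123 to 1).

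The class II deacetylase hdac7b was detected almost only in thymic T cells. It had 0 counts in all 11 thymic B, all 3 early B-committed, all 3 B Stage III and all 6 early T-committed libraries, 1 of 6 B Stage I libraries held 2.72 CPM, and B Stage II averaged 0.0131 CPM. T Stage I libraries held 7.00 to 42.5 CPM (median 23.5) and T Stage II libraries 10.8 to 27.2 CPM (median 22.4), all above every B lineage library. The lck-cd79a line was uneven, with 14.8, 0 and 0 CPM in T Stage III and 0.494, 0.721 and 20.8 CPM in T Stage IV. The pooled mean of the 18 thymic T libraries was 58.5-fold the level of 3 counts in each thymic B library. Those 3 counts are the limit that a count of 0 allows, which covers counting error only. This value is not a mean over lines, and levels in the lck-cd79a line were lower. Over the 3 lines hdac7b was called lower in thymic B cells (adjusted p = 0.00164, edgeR). The call was lost without T Stage III library 45 (adjusted p = 1) or T Stage IV library 50 (adjusted p = 0.105). In mouse, HDAC7 is known as a repressor in developing thymocytes, and the second zebrafish identifier, HDAC7, was near 0 everywhere with a highest mean of 3.88 CPM in T Stage II.

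Of the 31 calls between thymic B and thymic T cells, 21 were kept whichever library was left out, and the number of calls ran from 25 to 31. The other 10 were lost in at least 1 such fit. Besides ezh1 and hdac7b, arid5b was lost without thymic B library 6, 33 or 52 (adjusted p up to 1), HDAC10 without T Stage III library 47 (0.0793) and chd6 without lck-cd79a thymic B library 53 (0.0531). HDAC4 was lost in 14 of 27 fits (up to 0.342), kmt5ab in 10 (up to 0.138), kdm3b in 8 (up to 0.0878), CHD1L in 4 (up to 0.0724) and SMARCAD1_ENSDARG00000014041 in 1, without rag2-cd79a T Stage I library 28 (0.0524). These adjusted p-values are from the edgeR fit with 1 library fewer, and the last 3 genes are named because their calls were lost and not by the rule for named genes. The lines also differed in how many chromatin regulators passed on their own. The same contrast called 9 chromatin regulators inside the rag2-cd79b line (2 higher, 7 lower), 13 inside the rag2-cd79a line (2 higher, 11 lower) and 3 inside the lck-cd79a line (1 higher, 2 lower). Shares of all genes inside each line are not given here, so these counts are not shown to be particular to chromatin regulators. The difference between lines was tested for each pair of lines. It was called for 0 of the 127 chromatin regulators and for 5 to 36 of all 14423 genes. Such calls were rare among all genes, so the 0 does not show that chromatin regulators differed less between lines than other genes.

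**Figure D5:**
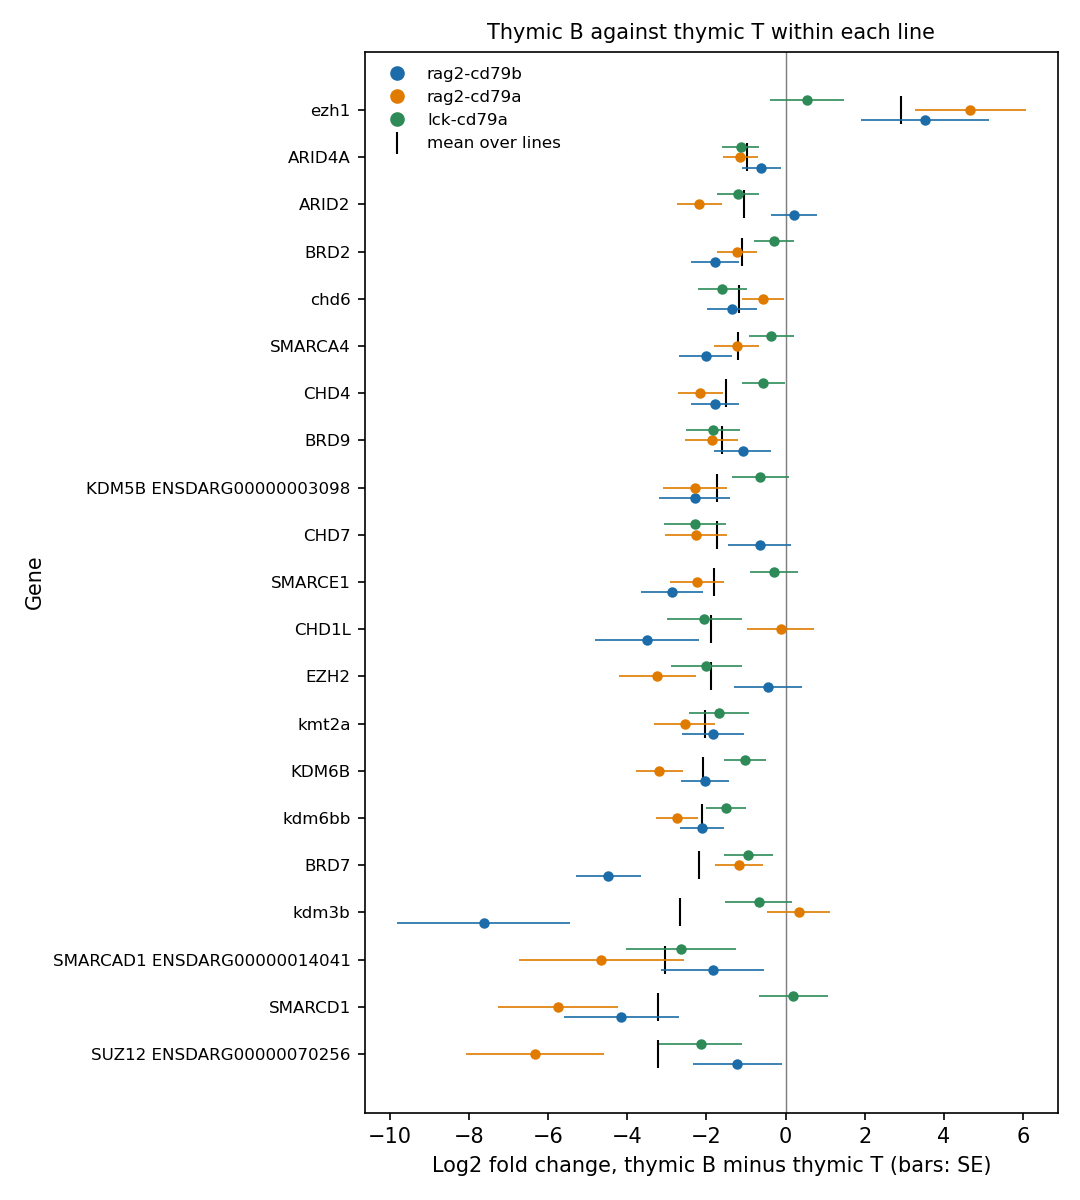
Log2 fold change of thymic B against thymic T cells inside each of 3 lines, with its standard error, for 21 of the 31 called chromatin regulator genes. Points are coloured by line, the tick is the mean over lines, and the genes not drawn include the 9 with a group at 3 counts or fewer. Most genes lie left of 0 in all 3 lines, and ARID2, SMARCD1 and kdm3b lie right of 0 in 1 line each.

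B Stage I cells of the marrow and T Stage II cells of the thymus, both sorted in the rag2 lines and both rich in the cycling list (3462 and 3889 CPM on average), gave a comparison of the lineages with closer depth. Here 11 chromatin regulators were called, 1 higher and 10 lower in B Stage I (8.66%, beside 5.84% of all genes, of which 3.4% higher and 2.43% lower, edgeR with Benjamini-Hochberg adjustment). The median log2 fold change was -0.40 for chromatin regulators and 0.08 for all genes, and it was negative for 91 of the 127 (71.7%) and for 44.9% of all. With trended dispersions 3 were called, hdac9b, kdm6bb and chd6. DESeq2 called 12 of the 127, of which 8 were shared, beside 14.2% of all genes. Among genes with a mean of at least 50 CPM the shares were 17.9% of 56 chromatin regulators and 15.1% of 2165 genes. Other cell type lists differed as well. The kidney tubule list (10 rows found) held 199 to 1778 CPM in B Stage I and 0 to 6.18 CPM in T Stage II libraries, the erythroid list (5 rows) 334 to 3068 CPM against 1.69 to 153 CPM, and the myeloid list (10 rows) 63.6 to 611 CPM against 0.265 to 73.1 CPM, with lyz, csf1ra, gata1a and fxyd2 at 0 in T Stage II. Their part in this comparison was not tested. T Stage II libraries were also part of the thymic comparison above, so the comparisons share them, and tissue differed with lineage.

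hdac9b held 108 to 271 CPM in B Stage I (n = 6) and 0 to 17.2 CPM in T Stage II (n = 6), with a log2 fold change of 5.53 ± 0.67 (SE) and adjusted p = 3.18e-12 (edgeR). kdm6bb held 73.8 to 255 CPM against 471 to 1004 CPM, at -2.15 ± 0.40 (SE) and adjusted p = 1.08e-05. Neither gene overlapped between the cell types. smarca1 held 5.74 to 32.1 CPM against 67.4 to 209 CPM (-2.66 ± 0.67, SE, adjusted p = 0.00288), again without overlap. Among the remodelling ATPases of the CHD family, chd6 held 49.9 to 113 CPM against 182 to 593 CPM (-1.73 ± 0.46, SE, adjusted p = 0.00552). CHD2 held 11.3 to 38.8 CPM against 33.3 to 147 CPM (-2.11 ± 0.56, SE, adjusted p = 0.00653). CHD7 held 3.87 to 46.6 CPM against 41.1 to 147 CPM (-2.31 ± 0.62, SE, adjusted p = 0.00735). CHD2 and CHD7 overlapped at the edge, and CHD7 was lost without rag2-cd79a T Stage II library 24 (adjusted p = 0.0731). The calls of KDM6B (-1.38 ± 0.42, SE, adjusted p = 0.0217), ARID2 (-1.39 ± 0.42, SE, 0.0249) and kmt2a (-1.77 ± 0.55, SE, 0.028) were less steady, lost in 5, 7 and 9 of the 12 fits that left out 1 library, with adjusted p up to 0.100, 0.101 and 0.117. hdac7b was called as well (0.454 CPM on average against 20.9 CPM, adjusted p = 0.0119).

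Within the marrow B lineage, later stages (B Stages II and III) were compared with precursors (early B-committed cells and B Stage I), 9 against 9 libraries. Only 3 chromatin regulators were called, chd6 higher and DNMT1 and kdm6bb lower, which is 2.36% beside 3.29% of all genes, 1.8% higher and 1.49% lower (edgeR). The median log2 fold change was 0.06 for chromatin regulators and 0.17 for all genes. Among genes with a mean of at least 50 CPM the shares were 5.36% of 56 chromatin regulators and 11.8% of 2165 genes. Trended dispersions called 1 chromatin regulator, chd6, and DESeq2 called 18 of the 127, beside 19.6% of all genes. At an unadjusted p under 0.05 (edgeR) there were 21 of the 127, beside 1785 of all 14423 genes.

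DNMT1 held 184, 412 and 49.6 CPM in early B-committed cells and 65.2 to 112 CPM in B Stage I. It held 0 to 37.1 CPM (median 2.21) in B Stage II and 4.96, 21.5 and 5.08 CPM in B Stage III. All 9 precursor libraries lay above all 9 later libraries, and the log2 fold change was -3.27 ± 0.65 (SE, adjusted p = 0.000184, edgeR). The summed cycling list (22 rows) was also lower, at 1923 to 4506 CPM in the precursor libraries and 171 to 1017 CPM in the later ones, and its part in the DNMT1 difference was not tested. Between B Stage II and B Stage I alone DNMT1 was lower by a log2 fold change of -3.02 ± 0.72 (SE, adjusted p = 0.00797), a call lost without B Stage II library 13 or 43 (adjusted p = 0.0552 and 0.0532).

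chd6 rose from the precursors to the later stages. It held 17.6, 34.7 and 132 CPM in early B-committed cells, 49.9 to 113 CPM in B Stage I, 77.9 to 456 CPM (median 223) in B Stage II and 235, 91.8 and 128 CPM in B Stage III, so the ranges overlapped. The log2 fold change was 1.85 ± 0.43 (SE, adjusted p = 0.00216, edgeR). It was 2.36 ± 0.53 (SE) in the rag2-cd79b line and 1.34 ± 0.65 (SE, adjusted p = 0.757) in the rag2-cd79a line. Between B Stage II and B Stage I it was 1.74 ± 0.46 (SE, adjusted p = 0.0226), and that call was lost without any of 8 of the 12 libraries (adjusted p up to 0.202).

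kdm6bb was lower in the later stages than in the precursors, but the ranges of B Stages I and II overlapped and it was not called between them. It held 439, 241 and 941 CPM in early B-committed cells, 73.8 to 255 CPM (median 163) in B Stage I, 17.3 to 236 CPM (median 145) in B Stage II and 19.8, 55.0 and 68.5 CPM in B Stage III. The later stages were lower by a log2 fold change of -1.31 ± 0.35 (SE, adjusted p = 0.0114, edgeR), which was lost without early B-committed library 7 (adjusted p = 0.0581). With trended dispersions the call was lost too (adjusted p = 0.0753, edgeR), as it was inside the rag2-cd79a line, which has 1 early B-committed library. kdm6bb was also the only chromatin regulator called between B Stage I and early B-committed cells, at -1.76 ± 0.46 (SE, adjusted p = 0.0222), 0.787% of the 127 beside 1.05% of all genes (0.582% higher and 0.471% lower). This call was lost without library 7, 10, 12 or 40 (adjusted p up to 0.279). The erythroid list (5 rows found) held 1918 to 9591 CPM in the 3 early B-committed and 334 to 3068 CPM in the 6 B Stage I libraries, and the myeloid list (10 rows found) 219.7 to 1444 CPM and 63.6 to 611 CPM, with EPOR and CSF3R at 0 in early B-committed cells. In B Stages II and III the erythroid list held 391 to 2955 CPM and 628 to 1020 CPM, and the myeloid list 68.8 to 975 CPM and 23.7 to 78.0 CPM. Their part in the comparisons of B stages was not tested. For B Stage II against B Stage I the 2 calls, chd6 and DNMT1, are 1.57% beside 1.12% of all genes (0.153% higher and 0.964% lower). Between B Stages III and II 0 of 127 were called (0.0277% of all genes), with 8 at an unadjusted p under 0.05 and 7 called by DESeq2. Of all 14423 genes 1231 had an unadjusted p under 0.05 (edgeR), and DESeq2 called 10.2%. smarca5, an ISWI ATPase, held 1.97, 6.03 and 5.66 CPM in the 3 B Stage III libraries, under all 6 B Stage II libraries (22.2 to 78.3 CPM), a pair of ranges picked out after the values were seen. The summed kidney tubule list (10 rows found) held 279.9 to 2636 CPM in B Stage III and 38.1 to 230.1 CPM in B Stage II libraries, and its part in the levels there was not tested.

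In both comparisons of neighbouring T stages that were run, edgeR called no chromatin regulator, and T Stage III was not compared with T Stage II, since they came from different lines. T Stage II against T Stage I, compared in the rag2-cd79a line, gave 0 of 127 beside 0% of all genes (edgeR), with 9 at an unadjusted p under 0.05 and 3 called by DESeq2. Of all 14423 genes 707 had an unadjusted p under 0.05 (edgeR), and DESeq2 called 6.1%. The log2 fold change was negative for 83 of the 127, with a median of -0.32 beside 0 for all genes. T Stage IV against T Stage III in the lck-cd79a line gave 0 of 127 beside 0.0763% of all genes, with 5 at an unadjusted p under 0.05 and 5 called by DESeq2. Here 1026 of all genes had an unadjusted p under 0.05 (edgeR), and DESeq2 called 9.13% of all genes.

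Thymic T Stages III and IV were compared with early T-committed marrow cells of the same lck-cd79a line, 6 against 3 libraries, a comparison in which tissue changes with stage. It called 6 chromatin regulators, 4 higher and 2 lower in the thymus (4.72%, beside 4.26% of all genes, 0.887% higher and 3.38% lower, edgeR). With a mean of at least 50 CPM required, 7.14% of chromatin regulators and 8.08% of genes were called. The demethylases were again among them. KDM6B held 193 to 335 CPM in the thymic libraries and 22.7, 36.1 and 28.8 CPM in the marrow libraries, a log2 fold change of 3.10 ± 0.61 (SE, adjusted p = 0.000133) with no overlap. kdm6bb held 201 to 363 CPM against 40.4, 28.1 and 110.1 CPM (2.27 ± 0.54, SE, adjusted p = 0.00243), also with no overlap, but the call was lost without early T-committed library 54 or 55 (adjusted p = 0.0522 and 0.0687). BRD7 held 72.8 to 134 CPM against 17.0, 18.3 and 1.77 CPM (3.00 ± 0.75, SE, adjusted p = 0.0049) and was lost without library 56 (0.0865). ING4, a reader subunit of a histone acetyltransferase complex, held 27.3 to 68.7 CPM against 0, 1.58 and 1.15 CPM (5.79 ± 1.60, SE, adjusted p = 0.015) and was lost without any 1 of the 3 marrow libraries (up to 0.0916).

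Both lower genes were scarce in T Stages III and IV, the thymic cells of this comparison, but not in all thymic cells. In thymic B cells hdac9b was high, and ing5a had its highest mean, 9.88 CPM, in T Stage II. hdac9b held 0 to 7.41 CPM in the thymic libraries and 20.4, 34.4 and 51.3 CPM in the marrow libraries (adjusted p = 7.07e-05, edgeR). ing5a had 0 counts in all 6 thymic libraries and 32.9, 0 and 6.70 CPM in the marrow libraries. The marrow mean, which rested mostly on 1 library, was 61.3-fold the level of 3 counts in each thymic library. The difference was called (adjusted p = 0.0473, edgeR). That call was lost in 7 of 9 fits without 1 library (adjusted p up to 0.471). Trended dispersions called 2 of the 6, hdac9b and kdm6bb, and DESeq2 called 20 chromatin regulators. The summed myeloid list (10 rows found) held 390.1 to 1762 CPM in the 6 early T-committed libraries and 11.1 to 309 CPM in T Stages III and IV, where CEBPA, csf1ra and lyz were at 0. The erythroid list (5 rows found) held 1235 to 16963 CPM against 60.6 to 216 CPM, with gata1a and alas2 at 0 in the thymic cells. Their part in this comparison was not tested. Early T-committed cells were also the cell type in which KMT2D, a methyltransferase of enhancers, had 0 counts in all 6 libraries. It averaged 10.1 CPM in B Stage I and 27.2 CPM in T Stage I, both of rag2 lines. KMT2D was not called in any comparison, and the part of detection in its zeros was not tested.

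Early T-committed and early B-committed marrow cells came from different lines, 6 libraries of lck lines and 3 of rag2 lines, and the difference between those lines in thymic B cells was subtracted. With that subtraction 9 chromatin regulators were called, 3 higher and 6 lower in early T-committed cells (7.09%, beside 2.62% of all genes, 0.811% higher and 1.81% lower, edgeR). Among genes with a mean of at least 50 CPM the shares lay closer, at 12.5% of 56 chromatin regulators and 8.78% of 2165 genes. Without the subtraction 11 were called, 1 higher and 10 lower, and with only the compared groups in the fit 2 were. The shares of all genes under these alternatives are not given here. Of the 9, BRD7, CHD7, DNMT1 and KDM6B were also called without the subtraction. HDAC10, KDM7A, KMT5B, SMARCD1 and SMARCE1 were not, so those calls rested on the difference between lines in thymic B cells. CHD7, a remodelling ATPase known for its part in enhancers, held 43.2 to 441 CPM (median 126) in early T-committed libraries and 21.2, 12.4 and 7.76 CPM in early B-committed libraries, with no overlap. Its log2 fold change was 4.73 ± 1.18 (SE, adjusted p = 0.00842) with and 3.82 ± 0.98 (SE, adjusted p = 0.00673) without the subtraction, and the call was lost without rag2-cd79a thymic B library 35 (adjusted p = 0.455). SMARCD1 held 0 to 54.6 CPM against 114, 77.4 and 73.7 CPM, again with no overlap. Its log2 fold change was -6.64 ± 1.45 (SE, adjusted p = 0.00138) with the subtraction and -2.36 ± 0.86 (SE, adjusted p = 0.0899) without it. DNMT1 held 0 to 51.2 CPM (median 3.48) against 184, 412 and 49.6 CPM, overlapping in 1 library on each side (adjusted p = 0.00148 with and 0.00141 without the subtraction).

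Only DNMT1 and SMARCD1 of these 9 were called whichever library was left out. BRD7, KMT5B and SMARCE1 were lost without early B-committed library 8 (adjusted p = 0.311, 0.0552 and 0.0794, edgeR), HDAC10 and KDM6B without lck-cd79b thymic B library 19 (0.186 and 0.702) and KDM7A in 8 of 19 fits (up to 0.182). The number of calls ran from 6 to 14 over those fits, and it was 14 without lck-cd79b early T-committed library 23. Lines are confounded with the cell types here, so the line and the lineage cannot be told apart except through the thymic B cells. The erythroid list held 1235 to 16963 CPM in early T-committed and 1918 to 9591 CPM in early B-committed libraries, and the myeloid list 390.1 to 1762 CPM and 219.7 to 1444 CPM, so both cell types carried them. The summed cycling list did not overlap, at 354 to 1199 CPM in early T-committed and 1923 to 4018 CPM in early B-committed libraries. The part of these lists in this comparison, the DNMT1 difference included, was not tested.

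Thymic B cells were set against B Stage II cells of the marrow in the rag2 lines, 6 against 6 libraries. Of the 127 genes 3 were called, all lower in the thymus (2.36%, beside 1.32% of all genes, 0.367% higher and 0.957% lower, edgeR). With a mean of at least 50 CPM required, 3.57% of chromatin regulators and 3.46% of genes were called. SMARCD1 held 0 to 6.86 CPM in thymic B and 3.77 to 98.4 CPM in B Stage II libraries, with a log2 fold change of -4.51 ± 1.12 (SE) and adjusted p = 0.0158. KDM6B held 27.9 to 233 CPM against 122 to 454 CPM (-1.57 ± 0.43, SE, adjusted p = 0.0355), and BRD7 held 0 to 192 CPM against 69.5 to 395 CPM (-1.89 ± 0.53, SE, adjusted p = 0.0391). The ranges of all 3 genes overlapped, and each call was lost without some library: SMARCD1 without B Stage II library 15 or 44 (adjusted p up to 0.177), KDM6B without any of 8 libraries (up to 0.0951) and BRD7 without any of 7 (up to 0.186). Median-ratio scaling left 1 call and the fit of only these groups 0. DESeq2 gave 23 of the 127, beside 24.9% of all genes. Median-ratio scaling also moved the share of higher calls among all genes from 27.7% to 45.6%. hdac9b did not pass, at 198 CPM on average in the 6 thymic B libraries and 340.3 CPM in B Stage II (adjusted p = 0.486).

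Other chromatin genes, outside the name rule, were read from 6 lists with 86 of their 127 entries measured. In thymic B against thymic T cells 0 were higher and 29 were lower (edgeR, adjusted p under 0.05), beside 4.69% of all genes higher and 6.51% lower. These lists were not matched to all genes in level. The histone chaperones had 7 of 12 lower, among them NAP1L1, which shuttles histones to DNA, at 128 CPM against 760 CPM (log2 fold change -2.47 ± 0.31, SE, adjusted p = 5.84e-12). The partners of SWI/SNF and ISWI motors had 9 of 17 lower, among them BAZ1B, at 181 CPM against 544 CPM (-1.52 ± 0.28, SE, adjusted p = 4.3e-06). The same list held bcl11ba, at 14.3 CPM against 1354 CPM, a T lineage factor that the T marker list also holds. The heterochromatin list had 4 of 11 lower, among them HELLS, a remodeller that works with DNA methyltransferases, at 14.9 CPM against 258 CPM (-4.13 ± 0.51, SE, adjusted p = 2.14e-12). UHRF1, which brings DNMT1 to replicated DNA in mammals, was at 14.5 CPM against 87.7 CPM. The summed cycling list held 85.7 to 1160 CPM in thymic B and 1129 to 4993 CPM in thymic T libraries, and its part in the differences of these lists was not tested. The other lists had fewer lower genes, with 2 of 12 for PRC1 and its partners, 3 of 15 for the partners of NuRD, Sin3 and CoREST and 4 of 19 for other histone methyltransferases and demethylase partners.

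In later against precursor B stages 0 of the 86 were higher and 6 were lower, beside 1.8% of all genes higher and 1.49% lower. HELLS was at 8.15 CPM against 107 CPM (-4.40 ± 0.65, SE, adjusted p = 5.81e-08, edgeR) and UHRF1 at 19.9 CPM against 79.6 CPM (-2.55 ± 0.66, SE, adjusted p = 0.00913), in the same comparison in which DNMT1 was lower. The others were chaf1a, a subunit of the chaperone that loads histones at replication forks, RBBP4, ANP32A and MTF2. The summed cycling list was lower too, at 171 to 1017 CPM in the later libraries and 1923 to 4506 CPM in the precursor libraries. Its part in these differences was not tested. All examples from these lists were chosen after their values were seen.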

How the data were processed

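RNA of 53 sorted zebrafish lymphocyte libraries was sequenced from the 3′ end. The authors deposited raw counts per gene, and per the submitters' processing notes the tools were FastQC 0.11.8, STAR, featureCounts and DESeq2 1.38.3 with the GRCz11 build, with no role or order given. Reads were not stated to carry molecular identifiers, so limits from a count of 0 cover counting error only. The strand setting is not given in the sources used here. The deposited normalised and log-scale tables were not used.

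The count table had 14424 rows, and 1 gfp row was left out of the tests. Gene symbols were looked up by identifier, 514 identifiers had none, and 24 of the 127 chromatin regulators share a symbol and carry their identifier. Paralogs with similar 3′ ends and overlapping genes can share reads. Per library 0 columns were without a sample, and among 50 replicate pairs none was close enough to be a library deposited more than once. CPM were counts divided by the library total. Groups with the same cell type name were read as that cell type whatever their line, and the name spelled "T State III" was read as T Stage III.

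Tests used edgeR 4.0.16 in R 4.3.3 (TMM, robust quasi-likelihood fit, dispersion estimated by the current method of that version) in 1 model with 19 group means, 11 contrasts over all 14423 genes and Benjamini-Hochberg adjustment with a threshold of 0.05. The dispersion method was kept after several had been run, since it was the one used earlier on these data. On simulated counts the fit made more false calls than the threshold allows, mostly in sparse genes, so counts with trended dispersions and with DESeq2 1.42.0 stand beside it. Fold changes are not printed where a group of the contrast had at most 3 counts in every library. Alternatives were scaling, filter, groups in the fit, lines alone and each library left out. Figures were drawn with matplotlib 3.10.9.

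The named genes are core members of each family, for each comparison up to 8 called genes per direction with the largest fold change and at least 10 CPM on the higher side, and the 10 genes with the highest mean CPM. Some of them are not reported here. The members and lists were chosen with earlier results of these data known.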

Additional observations from a re-analysis of the deposited data

How the results depend on the processing

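No paired analysis was possible because sample numbers run on within each line and are not shared between groups. The count of chromatin regulators called was recomputed under each alternative, and a filter of no minimum gave the counts already reported since it removed no gene. DESeq2 gave 18 for later against precursor B stages, 21 for B Stage I against early B-committed, 4 for B Stage II against B Stage I, 7 for B Stage III against B Stage II, 3 for T Stages II against I, 5 for T Stage IV against T Stage III, 20 for thymic T against early T-committed cells, 50 for thymic B against thymic T cells, 37 for the early T-committed against early B-committed comparison and 23 for thymic B against B Stage II. Trended dispersions gave 1 for later B stages, 0 for B Stage I against early B-committed, 0 for B Stage II against B Stage I, 2 for thymic T against early T-committed cells, 3 for B Stage I against T Stage II and 6 for thymic B against B Stage II. A fit of only the compared groups gave 7 for later B stages, 8 for B Stage II against B Stage I, 1 for T Stages II against I, 20 for B Stage I against T Stage II, 2 for the early T-committed against early B-committed comparison and 0 for thymic B against B Stage II. The stricter filter (15 libraries, 9452 genes) gave 5 for later B stages, and median-ratio scaling gave 1 for thymic B against B Stage II. Contrasts inside single lines, with the spread from all groups, gave 10 in the rag2-cd79b and 0 in the rag2-cd79a line for later B stages, 0 in both for B Stage I against early B-committed and for B Stage II against B Stage I, 9, 13 and 3 for thymic B against thymic T cells in the rag2-cd79b, rag2-cd79a and lck-cd79a lines, 6 and 2 for B Stage I against T Stage II, and 1 in the rag2-cd79a line for thymic B against B Stage II. Shares of all genes under the alternatives other than DESeq2 are not given here. The cause of these shifts was not tested.

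Directions turned in a line alone for ARID2 (0.21) in the rag2-cd79b line, for kmt5ab (1.27), HDAC4 (0.27), SMARCD1 (0.20) and HDAC10 (1.69) in the lck-cd79a line and for kdm3b (0.33) in the rag2-cd79a line, all as log2 differences of thymic B minus thymic T cells. The median log2 fold change of B Stage I against early B-committed was -0.070 in the rag2-cd79a line and 0.24 over both lines. That line has 1 early B-committed library, which is assumed to vary like the other groups.

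Leaving out 1 library each gave 2 to 5 calls for later B stages (5 without early B-committed library 8 or B Stage II library 42), 0 to 1 for B Stage I against early B-committed, 1 to 3 for B Stage II against B Stage I, 3 to 5 for thymic T against early T-committed cells (3 without library 54), 25 to 31 for thymic B against thymic T cells, 7 to 9 for B Stage I against T Stage II (7 without B Stage I library 10 or 39), 6 to 14 for the early T-committed against early B-committed comparison and 1 to 4 for thymic B against B Stage II (1 without library 14, 34 or 44), and 0 in the others. Library 36 is the only early B-committed library of its line, so without it no mean over both lines could be fitted, and for the B stages the contrasts inside the rag2-cd79b line leave it out. Median-ratio scaling moved the median of all genes by -0.14 (log2) for B Stage I against early B-committed, 0.17 for the early T-committed against early B-committed comparison and 0.18 for thymic B against B Stage II, and moved the share of higher calls among all genes from 31% to 40.6% for the early T-committed against early B-committed comparison. Depth limits the scarce genes most, since 3 counts stood for 0.411 CPM in the smallest library.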
